A study of Homo sapiens with 9 samples.

Results

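The genes described here are 10 rows of the deposited count table, followed across all libraries: the apolipoprotein genes APOA1, APOA2, APOB, APOC1, APOE and APOM, and 4 genes of other proteins that the liver secretes, TTR, AFP, SERPINA1 and FGB. They were chosen by symbol, and all 10 were found among the 19907 genes of the table. The libraries came from wild-type HUES8, a human embryonic stem cell line in wide use, driven to definitive endoderm, the layer from which gut, liver and pancreas arise. Every group received activin A at 100 ng/mL, with Wnt-3a at 50 ng/mL for the first 2 days, in medium with 0.2% albumin free of fatty acids. The DE group had no inhibitor, the C75 group received C75, which inhibits fatty acid synthase, and the ETO group received ETO, which inhibits fatty acid oxidation, with 3 libraries in each. The labels give neither a dose nor the timing of the inhibitors, nor do they state whether the replicates were independent cultures. The p-values therefore reflect the spread among these libraries, which may be technical. All groups are 1 cell line.

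Apolipoproteins are the protein part of lipoprotein particles, which carry cholesterol and triglyceride between cells. In the body most are made by liver and intestine, and the yolk sac endoderm of the embryo makes them together with AFP and TTR before the liver does. APOE is also secreted by many cells outside the liver, among them macrophages and astrocytes. The questions put to the data were which of these genes were expressed at the definitive endoderm stage and how the level of each stood when fatty acid synthesis or oxidation was inhibited.

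Library totals ran from 17379711 to 21510997 counts. A gene was tested if it passed edgeR's filter on low counts (about 0.533 CPM in at least 3 libraries), which 14177 genes did, and a difference was called at a Benjamini-Hochberg adjusted p below 0.05 over all of them. The 12 definitive endoderm markers looked up (SOX17, FOXA2, CXCR4 and GATA6 among them) each had counts in every library. Their summed expression was 10226 to 10660 CPM in DE, where CPM is a gene's count relative to the scaled library total. It was 16037 to 16426 in C75 and 5522 to 5638 in ETO. Most of the sum was CER1, at 6921 to 7207 CPM in DE, 11277 to 11621 in C75 and 3788 to 3942 in ETO. Against DE, all 12 were called higher in C75 (63.1% of all genes were called). In ETO 10 were called lower and 1, LHX1, higher (69.9% of all genes were called). SOX17 itself was at 760 ± 23.7 CPM in DE (SD, n = 3), 815 ± 43.5 in C75 and 226 ± 7.71 in ETO. POU5F1, a pluripotency factor, was at 295 ± 22.1 CPM in DE, 61.6 ± 1.98 in C75 and 1139 ± 29.3 in ETO. These are bulk libraries, in which fewer cells of a type and less RNA per cell cannot be told apart.

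APOE stood far above the other genes. Per kilobase of gene length, APOE was at 672 ± 19.5 CPM in DE, the 30th highest of the 14177 genes tested, at 894 ± 7.21 in C75 (rank 22) and at 231 ± 15.5 in ETO (rank 95). APOE held at least 91.7% of the counts of the 10 genes in each library. APOC1 followed at 71.1 ± 3.70 CPM per kilobase in DE, 68.2 ± 3.69 in C75 and 23.6 ± 1.51 in ETO. APOA2 and APOA1 came next, with APOA2 above APOA1 in DE (11.6 ± 0.646 against 6.38 ± 0.539 CPM per kilobase) and in C75 (15.6 ± 1.91 against 5.95 ± 0.634), and below it in ETO (2.29 ± 0.332 against 3.58 ± 0.206). The ranges of APOA1 and APOA2 over the 3 libraries did not overlap in any group. APOM, AFP and APOB were below 1 CPM per kilobase everywhere. APOM in ETO ran from 0.166 to 0.629 CPM per kilobase and AFP from 0.473 to 0.570, so the order of these neighbours did not differ beyond their spread. TTR, SERPINA1 and FGB were at the edge of detection.

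**Figure D1:**
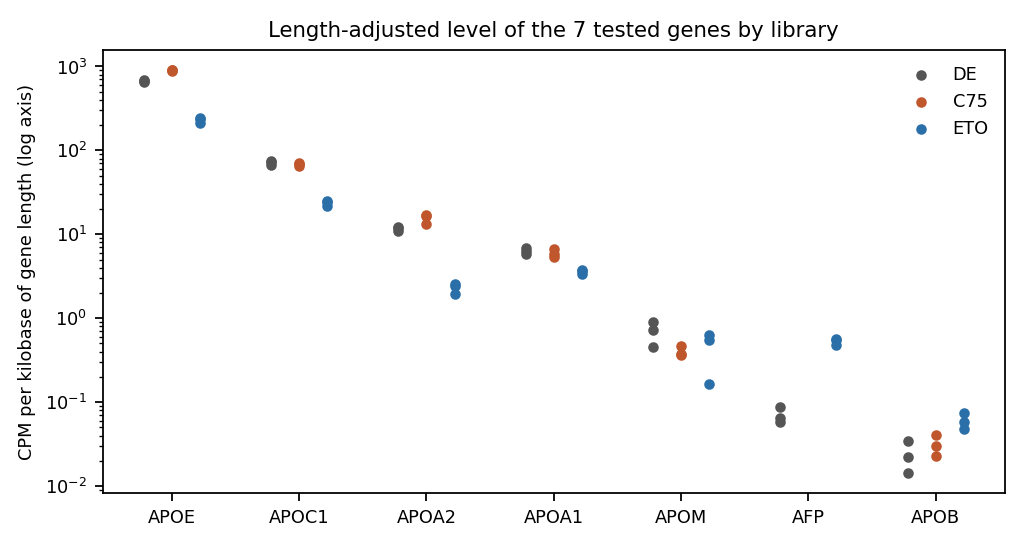
Level of the 7 tested genes in each library, as CPM per kilobase of the gene length in the deposited table, on a log axis. Each point is 1 library, coloured by group. AFP has no points for C75 because its count was 0 there, and APOE lies above every other gene in all 9 libraries.

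APOE, a ligand of lipoprotein receptors that also takes up cholesterol leaving cells, was measured at 1451, 1522 and 1446 CPM in the DE libraries, 1962, 1942 and 1973 in those of C75, and 520, 468 and 532 in those of ETO. The 3 groups did not overlap, with C75 highest and ETO lowest. APOE rose with C75 (adjusted p = 9.96e-13 by edgeR, for a log2 fold change of 0.41 with SE 0.034) and was 2.91-fold lower with ETO (log2 fold change −1.54, SE 0.035, adjusted p = 7.64e-29). Between the inhibitors, C75 was higher by a log2 fold change of 1.95 (SE 0.035). The gene (ENSG00000130203.9) lies on the plus strand of chromosome 19 at 44905754 to 44909393 on GRCh38.

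APOC1, a small apolipoprotein of triglyceride-rich particles and HDL that inhibits CETP and slows particle uptake, starts downstream of APOE on the same strand, at 44914247 to 44919349 of chromosome 19 (ENSG00000130208.9). Its level was 82.4, 91.3 and 88.8 CPM in the DE libraries, 84.3, 88.2 and 79.2 in C75, and 27.1, 30.7 and 29.5 in ETO. The C75 libraries overlapped those of DE, and the ETO libraries lay below both. APOC1 was 3.01-fold lower with ETO (log2 fold change −1.59, SE 0.055, edgeR adjusted p = 1.97e-23). With C75 no difference passed the test (−0.06, 95% interval −0.15 to 0.04, adjusted p = 0.297).

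**Figure D2:**
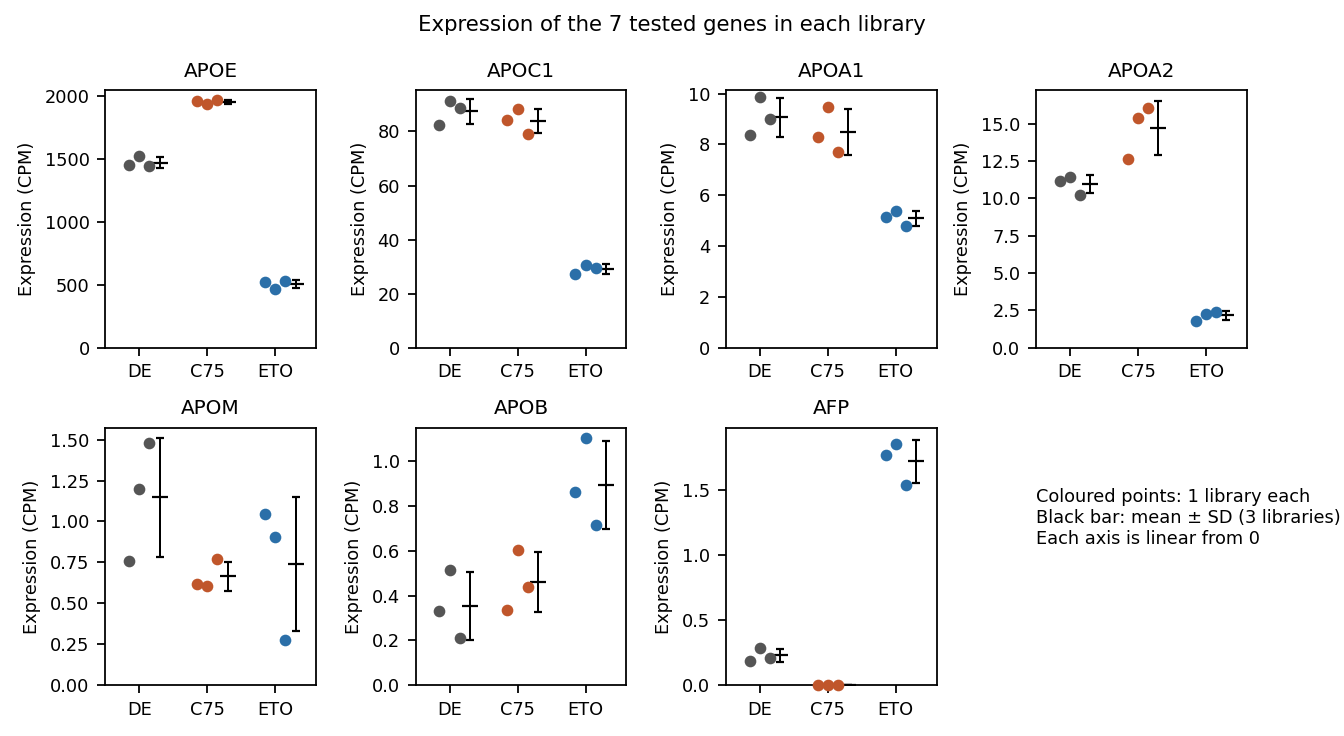
Expression in CPM of the 7 tested genes in each library, on linear axes from 0 that differ between panels. Points are libraries, and black bars give the mean ± SD of the 3 libraries of a group. APOE, APOC1, APOA1 and APOA2 are lowest in ETO, whereas APOB and AFP are highest there.

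The ratio of APOE to APOC1 counts within a library, which no scaling between libraries touches, was compared after the data had been seen. Each count of APOC1 was matched by 17.6, 16.7 and 16.3 counts of APOE in DE, by 23.3, 22.01 and 24.9 in C75 and by 19.2, 15.2 and 18.1 in ETO. The C75 libraries lay above all others, and DE and ETO overlapped. The log2 ratio was higher in C75 than in DE by 0.47 and higher than in ETO by 0.42, with an exact two-sided permutation p of 0.1 each (Benjamini-Hochberg adjusted p = 0.113 over 9 tests of 3 ratios), the smallest p that 3 against 3 libraries allow. For ETO against DE the difference was 0.05 (exact permutation p = 0.7). The transcript AC011481.3, not in the count table, shares 532 exon bases with APOC1 and 19 with APOE in GENCODE release 29, on the same strand.

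Other genes of the locus did not all follow APOE. TOMM40, which encodes a subunit of the mitochondrial import pore and ends 2065 bases before APOE, rose with C75 (log2 fold change 0.53, SE 0.041) and rose slightly with ETO (0.20, SE 0.041, edgeR adjusted p = 4.38e-05). NECTIN2, encoding a cell adhesion protein, had log2 fold changes of 0.38 with C75 and −0.80 with ETO, and CLPTM1 of 0.47 and −0.43, all of them called. APOC4 and APOC2, which lie beyond APOC1, had 0 counts in all 9 libraries.

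APOA1, the main structural protein of HDL and the activator of LCAT, measured 8.36, 9.89 and 8.99 CPM without inhibitor, 8.28, 9.46 and 7.69 with C75, and 5.13, 5.37 and 4.79 with ETO. DE and C75 overlapped, and ETO lay below both. APOA1 was 1.77-fold lower with ETO (SE of the log2 fold change of −0.83 was 0.122, edgeR adjusted p = 3.34e-07), whereas for C75 no difference passed (−0.09, 95% interval −0.32 to 0.13, adjusted p = 0.486). It lies on the minus strand of chromosome 11 at 116835751 to 116837950 (ENSG00000118137.9), and 123 of its exon bases are shared with the antisense gene APOA1-AS. Its cluster partners APOA4, APOA5 and APOC3 did not pass the filter on low counts: APOC3 had 0 counts in every library, APOA4 had 7, 17 and 12 counts over the 3 libraries of DE, C75 and ETO, and APOA5 had 7, 5 and 0.

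APOA2, the second most abundant HDL protein, had the largest fall with ETO among the apolipoproteins of the set. The DE libraries held 11.2, 11.4 and 10.3 CPM of it, the C75 libraries 12.7, 15.4 and 16.1, and the ETO libraries 1.82, 2.26 and 2.42, with no overlap between groups. APOA2 rose with C75 (edgeR adjusted p = 5.84e-04, at a log2 fold change of 0.43 with SE 0.104) and was 5.08-fold lower with ETO (−2.34, SE 0.142, adjusted p = 1.61e-16). The gene (ENSG00000158874.11) lies on the minus strand of chromosome 1 at 161222292 to 161223631. Its neighbour TOMM40L had log2 fold changes of 0.06 with C75 (adjusted p = 0.524) and −0.24 with ETO (adjusted p = 0.0112), both nearer 0 than those of APOA2.

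APOA1 and APOA2 sit together on HDL, and their ratio was likewise chosen after the data had been seen. The count of APOA2 per count of APOA1 was 1.34, 1.16 and 1.14 in DE, 1.53, 1.63 and 2.09 in C75 and 0.354, 0.421 and 0.506 in ETO. The 3 groups did not overlap. The log2 ratio was 0.52 higher in C75 than in DE and fell by 1.52 in ETO (exact two-sided permutation p = 0.1 each, adjusted p = 0.113 over the 9 tests). APOE per count of APOA1 was 163 ± 9.99 in DE, 233 ± 25.9 in C75 and 99.9 ± 12.0 in ETO (n = 3 each, exact permutation p = 0.1 in each comparison).

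**Figure D3:**
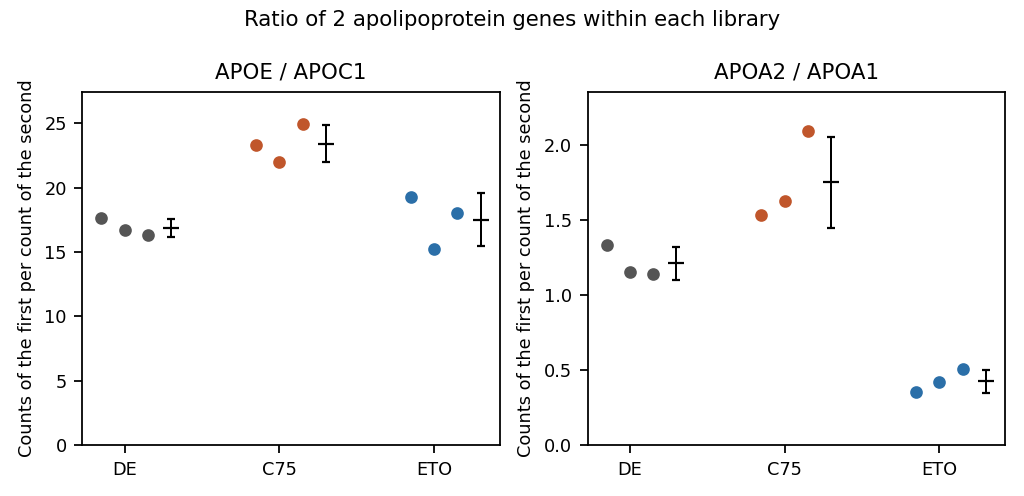
Counts of APOE per count of APOC1 (left) and of APOA2 per count of APOA1 (right) in each library, on linear axes from 0. Points are libraries and black bars the mean ± SD of 3. The left ratio stands apart in C75 only, and the right ratio separates all 3 groups.

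The promoters of APOE, APOA2 and AFP are shown because APOE had the highest level of the set, APOA2 the largest fall with ETO and AFP the largest rise. RefSeq promoter entries (GRCh38.p14) matched 7 of the 10 genes: APOA2, APOC1, APOE, APOM, AFP, SERPINA1 and FGB. Each run gives bases before the annotated start, 5′ to 3′ on the gene's strand, without bases that a GENCODE release 29 exon covers. For APOE the first of its annotated starts was taken, at chr19:44905546-44905753 (plus strand), for APOA2 chr1:161223632-161223878 (minus strand) and for AFP chr4:73435971-73436162 (plus strand), where the RefSeq start lies inside the span that GENCODE gives AFP. Capitals mark letters that match a motif searched.
APOE: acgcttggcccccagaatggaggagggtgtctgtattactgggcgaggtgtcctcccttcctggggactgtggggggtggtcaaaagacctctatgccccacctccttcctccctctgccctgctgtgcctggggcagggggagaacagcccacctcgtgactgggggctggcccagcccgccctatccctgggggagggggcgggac
APOA2: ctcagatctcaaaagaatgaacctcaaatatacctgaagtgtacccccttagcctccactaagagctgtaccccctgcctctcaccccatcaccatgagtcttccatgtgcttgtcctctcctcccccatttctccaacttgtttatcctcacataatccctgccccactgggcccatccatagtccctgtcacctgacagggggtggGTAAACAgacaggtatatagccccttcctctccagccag
AFP: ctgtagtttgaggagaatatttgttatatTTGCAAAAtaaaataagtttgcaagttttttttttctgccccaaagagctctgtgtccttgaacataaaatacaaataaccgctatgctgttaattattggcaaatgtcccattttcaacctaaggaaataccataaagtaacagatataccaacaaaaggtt

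The motifs were searched on both strands in the 250 bases before each start. The FOXA letters TGTTTNC were found in APOA2 (as GTAAACA, 42 to 36 bases before the start), APOM and SERPINA1, and in 15.5% of all 35116 promoters. The C/EBP letters TTGCNNAA were found in AFP and FGB and in 9.05% of all promoters, and the TATA letters TATAAA in AFP alone of the 7 (in a stretch not printed) and in 10.7%. The HNF4 letters CAAAGTCCA (0.325% of all promoters) and the GATA letters AGATAA (9.17%) were in none of the 7. No match overlapped another in these genes. A gene is named if any of its promoter entries held a match, whereas the percentages count each entry, and some genes have several. These are matches of letters in a window and show no binding.

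APOM, a lipocalin that carries sphingosine 1-phosphate on HDL, was low and uneven. In DE it gave 0.760, 1.20 and 1.48 CPM, in C75 0.620, 0.605 and 0.769, and in ETO 1.04, 0.904 and 0.275. The groups overlapped, and ETO replicate 3 had 5 counts against 23 and 18 in the other ETO libraries. No comparison passed the test (log2 fold change −0.77, 95% interval −1.51 to −0.02, edgeR adjusted p = 0.0794 with C75, and −0.57, −1.29 to 0.14, adjusted p = 0.159 with ETO), but without DE replicate 1 APOM was called lower in C75 (−1.01, adjusted p = 0.0338). APOM (ENSG00000204444.10, chromosome 6, 31652416 to 31658210, plus strand) shares 136 exon bases with BAG6 on the opposite strand. BAG6 was at 405 ± 16.1 CPM in DE, the counting's strand setting is unknown, and the part of BAG6 reads in the APOM value was not tested.

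APOB, the scaffold protein of VLDL, LDL and chylomicrons, was barely expressed. It had 7, 9 and 4 counts in DE, 6, 11 and 8 in C75 and 19, 22 and 13 in ETO, or 0.353 ± 0.152, 0.461 ± 0.135 and 0.895 ± 0.197 CPM. ETO lay above both other groups. APOB rose with ETO against DE (log2 fold change 1.35, SE 0.417, edgeR adjusted p = 0.00471), with 54 counts against 20. It passed the filter on low counts in the 3 ETO libraries and 1 of C75, so this call is tied to its being tested. The difference between C75 and ETO (−0.95, SE 0.398, adjusted p = 0.0298) was lost without C75 replicate 1 (−0.78, adjusted p = 0.112), C75 replicate 3 (−0.93, adjusted p = 0.0693) or ETO replicate 2 (−0.77, adjusted p = 0.120), without a filter on low counts (adjusted p = 0.0536) and with DESeq2 (adjusted p = 0.0743). APOB (ENSG00000084674.14) lies on the minus strand of chromosome 2 at 21001429 to 21044073. MTTP, the transfer protein that loads lipid onto APOB, did not pass the filter, with a mean of 0.107 CPM in DE, 0.0367 in C75 and 0.0821 in ETO.

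AFP, the major plasma protein of fetal life, made by yolk sac and fetal liver, went the opposite way to APOE. AFP had 4, 5 and 4 counts in DE, 0 in each C75 library and 39, 37 and 28 counts in ETO. The 3 groups did not overlap. In ETO it was at 1.72 ± 0.164 CPM against 0.229 ± 0.0502 in DE (log2 fold change of 2.90 with SE 0.392, adjusted p = 8.48e-08 by edgeR), and the ratio of summed counts was 7.65 (95% counting interval 4.28 to 14.9). AFP passed the filter on low counts in the ETO libraries alone. Its adjusted p in every comparison are therefore tied to its level in ETO and are no independent support. In C75 the 0 counts over 3 libraries allow up to 0.0554 CPM (3 counts over the group, counting error only), so against that floor AFP was at least 4.08-fold lower than in DE (adjusted p = 0.00102) and at least 31.2-fold lower than in ETO (adjusted p = 6.58e-11). The floor takes the DE and ETO counts as exact, and with their counting error included the 95% exact intervals of these ratios start at 2.87 and 24.95. Its neighbour ALB, which encodes albumin and ends 9726 bases before AFP, had 1, 6 and 8 counts over the libraries of DE, C75 and ETO, and AFM had 0 in all. AFP lies on the plus strand of chromosome 4 at 73431138 to 73456174 (ENSG00000081051.7).

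TTR, the carrier of thyroxine and of retinol-binding protein, SERPINA1, the plasma inhibitor of neutrophil elastase, and FGB, the beta chain of fibrinogen, were essentially silent and were not tested. TTR had 1 count in DE replicate 1, 1 in ETO replicate 3 and 0 elsewhere. SERPINA1 had 1 count in ETO replicate 3 alone, and FGB had 1 count each in DE replicates 2 and 3. The exact Poisson 95% upper limits over a group were at most 0.0970 CPM for TTR, 0.0927 for SERPINA1 and 0.126 for FGB, so differences between groups below that level were not detectable at this depth. TTR lies on chromosome 18 at 31557010 to 31599021 (plus strand, ENSG00000118271.10), SERPINA1 on chromosome 14 at 94376747 to 94390693 (minus strand, ENSG00000197249.13) and FGB on chromosome 4 at 154562956 to 154571086 (plus strand, ENSG00000171564.11). FGA and FGG, the other fibrinogen chains, had at most 6 counts over the 3 libraries of any group.

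Over the whole set, 7 of the 10 genes passed the filter on low counts. AFP passed it in the ETO libraries alone, and APOB in the 3 ETO libraries and 1 of C75, so their rise in ETO is tied to their being tested and their calls are no support for a trend of the set. With C75, 2 were called higher (APOE, APOA2) and 1 lower (AFP), where 63.1% of all 14177 genes tested were called, 31.2% higher and 31.9% lower. With ETO, 4 were called lower (APOE, APOC1, APOA1, APOA2) and 2 higher (APOB, AFP), where 69.9% of all genes were called, 34.7% higher and 35.3% lower. Between C75 and ETO, 4 were higher and 2 lower in C75, against 79.2% of all genes called, 39.9% higher and 39.2% lower. The libraries of 3 of the 7 did not overlap between C75 and DE (65.8% of all genes), those of 6 between ETO and DE (71.7%) and those of 6 between C75 and ETO (80% of all genes). Over 7 genes, such shares are no result about the set. The median log2 fold change of the 7 was −0.06 with C75 and −0.83 with ETO, beside −0.0046 and −0.0034 over all genes tested. Setting AFP in C75 to its bound could not move the C75 median, because AFP stayed the lowest of the 7. The comparisons of C75 and of ETO with DE use the same DE libraries.

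**Figure D4:**
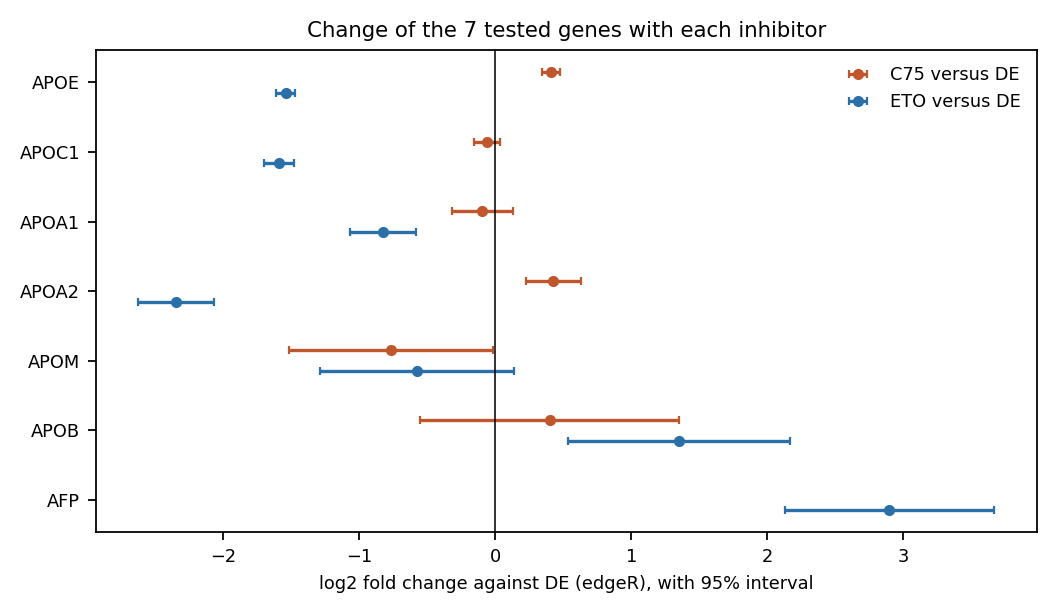
Log2 fold change against DE of the 7 tested genes, from the edgeR fit of all 9 libraries, with 95% intervals taken from the SE. Orange is C75 and blue is ETO, and AFP with C75 is left out because its C75 count was 0. The ETO values of APOE, APOC1, APOA1 and APOA2 are below 0 and those of APOB and AFP above it.

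Among 18 further apolipoprotein and HDL-associated genes, 4 passed the filter. CLU, which encodes clusterin or apolipoprotein J, a secreted chaperone, had the order opposite to APOE, with 51.1, 52.1 and 57.4 CPM in DE, 19.2, 18.2 and 24.5 in C75, and 170, 164 and 167 in ETO. CLU was lower in C75 (log2 fold change −1.37, SE 0.069) and higher in ETO (1.64, SE 0.053), with edgeR adjusted p of 2.56e-18 and 2.49e-24. APOL2, of the intracellular APOL family, likewise was 4.94-fold lower with C75 and 3.70-fold higher with ETO, while APOL3 was 1.87-fold higher with C75 and 2.86-fold lower with ETO. PON3 was not called with either inhibitor (log2 fold changes −0.77 and 0.22). In all, 1 gene of the list was higher and 2 lower with C75, and 2 were higher and 1 lower with ETO, beside the 63.1% and 69.9% called among all genes. Over 4 genes, such shares are no result about the list.

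Of 27 genes listed that move lipid to or from these proteins, or take up their particles, 24 were tested. With C75 13 rose and 5 fell, where 63.1% of all genes were called, 31.2% higher and 31.9% lower. With ETO 13 rose and 9 fell, where 69.9% of all genes were called, 34.7% higher and 35.3% lower. The median log2 fold changes were 0.25 and 0.29. LPL, called higher with ETO, had 8, 5 and 6 counts in DE and 25, 25 and 17 in ETO, so its call is tied to its being tested. The cholesterol exporters ABCA1 and ABCG1, which pass cholesterol to APOA1, APOE and HDL, had their highest level in C75, as APOE did. ABCA1 was at 180 ± 7.90 CPM in DE, 356 ± 5.40 in C75 and 66.1 ± 2.69 in ETO, with log2 fold changes of 0.98 (SE 0.036) and −1.45 (SE 0.040), both called. ABCG1 was at 5.96 ± 0.410 CPM in DE, 53.9 ± 1.56 in C75 and 3.69 ± 0.277 in ETO. PLTP, which transfers phospholipid between particles, rose with C75 (0.49, SE 0.045) and did not pass with ETO (0.0035, SE 0.047, edgeR adjusted p = 0.950). APOE, APOC1, ABCA1, ABCG1 and PLTP are known targets of the liver X receptors, whose genes NR1H3 and NR1H2 were both called lower than in DE with each inhibitor (log2 fold changes −0.32 and −0.39 with C75, −0.25 and −0.46 with ETO). For NR1H3 the ETO libraries overlapped those of DE (edgeR adjusted p = 0.0273).

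The receptors did not move as a block. With ETO, LRP2, encoding megalin, rose from 0.823 ± 0.388 to 3.91 ± 0.714 CPM, LRP8, an APOE receptor, rose 2.15-fold and SCARB1, the HDL receptor, 1.74-fold (log2 fold changes with C75 −0.18, called, and 0.13, not called), while AMN and CUBN, whose products form a receptor that binds APOA1, were 1.64-fold and 1.62-fold lower. With C75, CUBN was 2.11-fold and AMN 1.57-fold higher, and LRP2 was called lower (−1.06, SE 0.428, edgeR adjusted p = 0.0302) although its libraries overlapped those of DE. VLDLR was lower with both inhibitors (−0.48 with C75, −0.64 with ETO, both called). SORT1 was lower with C75 (−0.21, SE 0.046) and higher with ETO (0.26, SE 0.044). LCAT, which esterifies cholesterol on HDL, rose with ETO (0.71, SE 0.148) and was not called with C75 (−0.08, SE 0.164).

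Of 40 other plasma protein genes of the liver, 9 passed the filter. With C75 3 rose and 3 fell, where 31.2% of all genes were called higher and 31.9% lower. With ETO 1 rose and 5 fell, where 34.7% of all genes were called higher and 35.3% lower. The total of 6 called with each inhibitor was near the 63.1% and 69.9% of all genes called. Over 9 genes, such shares are no result about the list. HP, encoding haptoglobin, which binds free haemoglobin, had 23, 9 and 16 counts in DE, 124, 163 and 168 in C75 and 9, 4 and 2 in ETO. It was 10.01-fold higher with C75 (edgeR adjusted p = 1.17e-14) and 3.28-fold lower with ETO (−1.71, SE 0.434, adjusted p = 7.43e-04), but it passed the filter through the C75 libraries, where it is high. F10, encoding coagulation factor X, was at 5.598 ± 0.481 CPM in DE and 1.29 ± 0.461 in ETO (4.40-fold lower) and did not pass with C75 (5.95 ± 0.618, adjusted p = 0.654). C3, the central complement protein, was lower with both inhibitors, at 31.6 ± 1.02 CPM in DE, 16.5 ± 0.961 in C75 and 16.7 ± 1.22 in ETO. A1BG and SERPINF1 rose with C75 by log2 fold changes of 0.76 and 0.60, and SERPING1, the C1 inhibitor, had log2 fold changes of −0.40 with C75 and −0.54 with ETO, both called. The 1 gene called higher with ETO was RBP4, the retinol carrier that circulates with TTR, with 5, 7 and 7 counts in DE and 31, 11 and 21 in ETO. RBP4 passed the filter in the ETO libraries alone, so its call is tied to its being tested. RBP4 and the untested SERPINA6, encoding cortisol-binding globulin, were singled out after their values were seen. SERPINA6 had 0 counts in DE, 7, 17 and 8 in C75 and 1, 0 and 2 in ETO.

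The 29 transcription factors and cofactors listed for liver and endoderm included 25 that were tested. With C75 10 rose and 6 fell, beside 63.1% of all genes called, 31.2% higher and 31.9% lower. With ETO 6 rose and 15 fell, beside 69.9% of all genes called, 34.7% higher and 35.3% lower. The median log2 fold changes were 0.10 and −0.46. HNF4A, a nuclear receptor known to activate APOA1, APOA2, APOB and TTR in liver, was at 16.6, 15.5 and 14.0 CPM in DE, at 15.7, 15.9 and 14.3 in C75 and at 2.77, 2.96 and 2.04 in ETO. DE and C75 overlapped (−0.01, SE 0.094, edgeR adjusted p = 0.925), and ETO was 5.89-fold lower (adjusted p = 4.13e-19). FOXA1, at 0.732 CPM in DE, rose with C75 (1.47, SE 0.315), and was not called with ETO (−0.92, SE 0.424). FOXA2 and FOXA3 were more abundant, at 145 and 40.2 CPM in DE. Both were called lower with ETO (−1.71, SE 0.051, and −1.44, SE 0.070). With C75 FOXA2 rose (0.28, SE 0.044) and FOXA3 was not called (−0.13, SE 0.063). ONECUT2 rose with both inhibitors (1.56, SE 0.125 with C75, and 0.82, SE 0.133 with ETO). The coactivator gene PPARGC1A was higher with C75 (2.04, SE 0.167) and lower with ETO (−1.16, SE 0.238). HHEX, needed for the liver bud, likewise was higher with C75 (1.29, SE 0.050) and lower with ETO (−1.61, SE 0.065).

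NR5A2, a nuclear receptor first described as an activator of AFP, had the order of AFP: 7.65, 8.06 and 9.57 CPM in DE, 2.99, 3.41 and 3.68 in C75 and 25.9, 25.7 and 24.7 in ETO. It was 2.50-fold lower with C75 (edgeR adjusted p = 7.29e-11) and 3.02-fold higher with ETO (adjusted p = 2.67e-17). AFP passed the filter in the ETO libraries alone, and a part of NR5A2 in its level was not tested. ONECUT1, which encodes HNF6, rose with ETO (1.41, SE 0.225) and was not called with C75 (−0.33, SE 0.279). CEBPG was 1.24-fold higher in ETO than in C75.

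**Figure D5:**
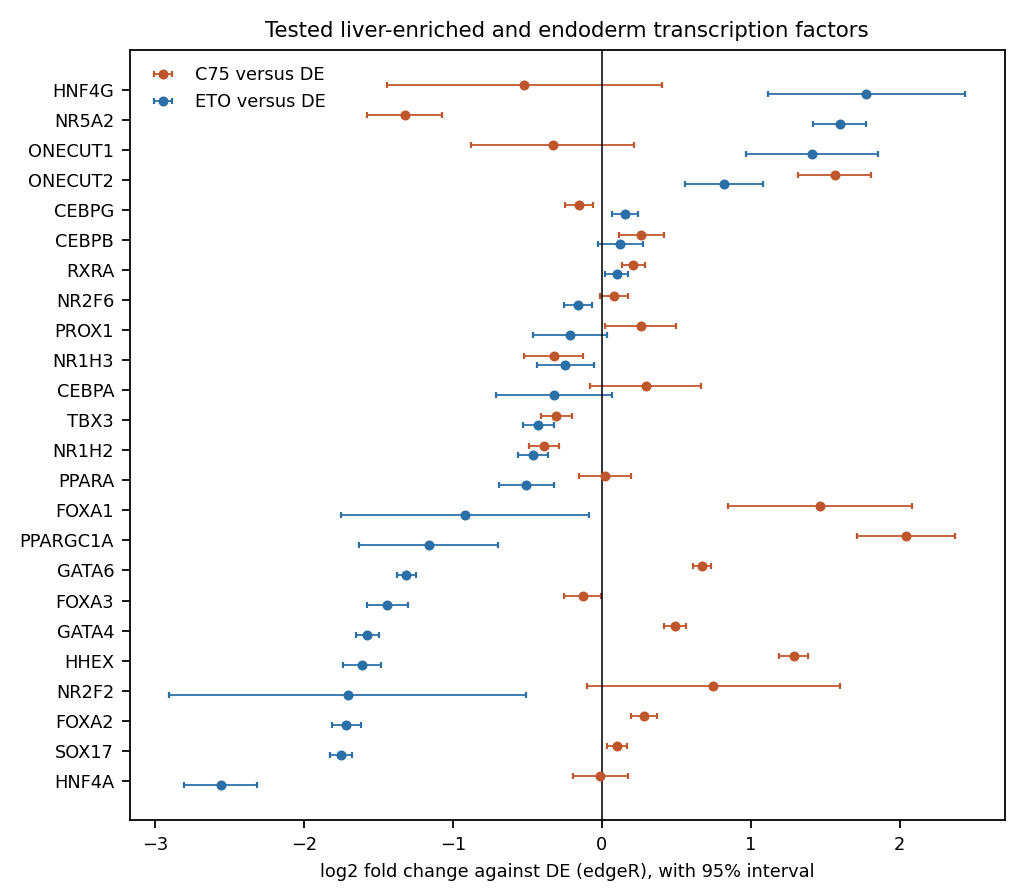
Log2 fold change against DE of tested transcription factors and cofactors of liver and endoderm, with 95% intervals taken from the SE, ordered by the ETO value. Orange is C75 and blue is ETO. HNF4A lies lowest with ETO, and NR5A2 lies on opposite sides of 0 with the inhibitors.

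Of 30 genes listed as genome neighbours of the 10, 14 were tested. With C75 8 were higher and 2 lower, beside 31.2% and 31.9% of all genes. With ETO 3 were higher and 7 lower, beside 34.7% and 35.3%. The total of 10 called in each comparison was near the 63.1% and 69.9% of all genes called. Over 14 genes, such shares are no result about the list. The counts of the list include PAFAH1B3, called higher with C75 and lower with ETO, which proved to lie 2602208 bases from APOE and is no neighbour. PLRG1, a splicing factor gene beside FGB, rose with C75 (log2 fold change 0.75, SE 0.034) and fell by 0.84 with ETO while FGB stayed at its limit. B4GALT6 and DSG2, on either side of TTR, were lower with C75 (−0.65 and −0.20) and higher with ETO (1.23 and 0.39).

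Markers of other cell types differed between the groups as well. Of all genes tested, 63.1% were called with C75 (31.2% higher and 31.9% lower) and 69.9% with ETO (34.7% higher and 35.3% lower). Over lists this short, the counts of called markers are no result about a cell type. The summed level of 8 pluripotency markers was 3507 to 3587 CPM in DE, 3137 to 3184 in C75 and 4410 to 4509 in ETO, with 2 of them higher and 6 lower in C75, and 6 higher and 2 lower in ETO. That of 8 mesoderm markers was 154 to 162 CPM in DE, 92.6 to 95.4 in C75 and 402 to 408 in ETO, with 3 of the 6 tested lower in C75 and 5 higher in ETO. Most of the mesoderm sum was KDR (121 CPM in DE, 58.0 in C75 and 347 in ETO). MESP1 and HAND1 were low in ETO too, at 0.922 and 1.17 CPM. Visceral and yolk sac endoderm, in which AFP, TTR and apolipoproteins are typical products, gave 101 to 107 CPM over 12 markers in DE, 90.6 to 100.2 in C75 and 91.1 to 97.4 in ETO, and AFP and TTR themselves were at 0 in C75. Most of this sum was DAB2 and PDGFRA (36.3 and 30.8 CPM in DE). The markers went both ways: of 11 tested, 2 were higher and 4 lower in C75, and 4 higher and 5 lower in ETO. With ETO AFP and LRP2 rose, while HNF4A, CUBN, AMN and APOA1 fell. The 11 liver progenitor markers summed to 472 to 492 CPM in DE, 495 to 513 in C75 and 217 to 225 in ETO, most of it KRT19 (380 CPM in DE, 158 in ETO). Of 8 tested, 2 were higher (DLK1 and KRT19) and 3 lower (AFP, TBX3 and ASGR1) in C75. In ETO 1 was higher (AFP) and 4 were lower (HNF4A, TBX3, DLK1 and KRT19). The 6 neural and neural crest markers gave 804 to 815, 924 to 942 and 995 to 1020 CPM in DE, C75 and ETO. The ETO sum was carried by NES (367 CPM in DE, 829 in ETO), and FOXD3 also rose, while PAX6 (26.6 to 5.78), SOX10 (41.7 to 10.3) and OTX2 (367 to 141) fell. The 6 trophoblast and amnion markers summed to 34.3 to 38.5, 20.1 to 22.8 and 26.2 to 28.4 CPM. With ETO GATA3 (29.2 to 17.8) and ISL1 fell, GABRP rose (1.93 to 5.43) and the untested KRT7 had 40 counts against 6. Besides AFP and TTR, markers without a count were MSGN1 (mesoderm) and CGA (trophoblast) in all 3 groups, and FOXF1 (mesoderm) and SOX1 (neural) in C75. All 8 pluripotency markers had counts in every library. The part of such cells in the levels of the 10 genes was not tested.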

How the data were processed

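RNA-seq of 9 libraries was deposited as whole-number counts, 1 row per gene symbol with the gene's length in bases. The submitters' processing notes name HISAT2 2.1.0, featureCounts 1.6.4 and GRCh38 and give none a role. Annotation, strand setting and handling of multi-mapping reads: not given in the sources used here. All 19907 symbols matched GENCODE release 29, and 99.84% had its merged exon length, so positions are taken from that release.

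From the deposited counts, edgeR 4.0.16 in R 4.3.3 fitted all 9 libraries by group (filterByExpr, minimum count 10, 14177 genes, TMM, quasi-likelihood F-test). P-values were Benjamini-Hochberg adjusted over all genes and called below 0.05. CPM are scaled with TMM factors. Levels of different genes are compared only per kilobase. The count ratios were added after the data were seen. Intervals on low counts cover counting error only. The fit was tested on simulated counts. Alternatives were DESeq2 1.42.0, other scalings and filters, 6-library fits, a replicate block and leaving out each library.

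The 10 genes and the lists were chosen with earlier results of these data known. Outside the 10, each list names up to 3 called genes per direction and comparison with the largest change and a mean of at least 1 CPM, and neighbours beside their gene. Genes added by other criteria are described by role: the liver X receptor genes, PLTP, MTTP, ALB, FOXA2, FOXA3 and untested cluster partners. Some listed items are not reported here.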

Additional observations from a re-analysis of the deposited data

How the results depend on the processing

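APOE, APOC1, APOA1, APOA2 and AFP kept their direction and their side of the threshold against DE and between inhibitors under every alternative that tested them. Count limits bear on APOB, APOM, AFP, TTR, SERPINA1 and FGB. With C75 against DE, genes called lower numbered 0 in the fit of 6 libraries, where AFP was filtered out, and between 1 and 2 when 1 library was left out. With ETO against DE, 1 gene was called higher under the stricter filter, which removed APOB. Between C75 and ETO, 1 gene was called lower in C75 without a filter, with the stricter filter and with DESeq2, and between 1 and 2 when 1 library was left out, APOB being the one lost. The mean of APOE in C75 was 1907 CPM with upper-quartile scaling. The median log2 fold change of all genes moved most with upper-quartile scaling, by −0.0684 between C75 and ETO. With the replicate number as a block, 2 genes were called higher and 1 lower with C75, 2 higher and 4 lower with ETO, as without it. Same-numbered libraries did not deviate together (correlations −0.0272 to 0.0498 over 9 pairs), so numbers were not taken as pairs.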
